A study of Homo sapiens with 8 samples.

Results

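The transcripts of 52 genes whose products build the large (60S) subunit of the human ribosome were followed through a polysome profiling experiment. The genes were chosen by name as factors of 60S assembly and maturation, with earlier results of these data known, and all 52 names matched a row among the 58395 genes of the deposited count files. All 52 also passed the filter on low counts that left 16503 genes for testing, with 31 to 44377 reads per gene and library. They lie on 21 chromosomes.

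The cells were OCI-AML3, an established human acute myeloid leukaemia line, infected with a control short hairpin (shCT) or a hairpin against FBL (shFBL). FBL encodes fibrillarin, the nucleolar enzyme that methylates ribosomal RNA under the guidance of box C/D small nucleolar RNAs. All cells had received cycloheximide, which stalls elongating ribosomes on their mRNA, at 100 µg/mL for 15 min. RNA of the cleared lysate (input) and RNA recovered from polysomes after a 10% to 50% sucrose gradient were sequenced. The labels give 4 groups of 2 libraries each: input CT, input U, polysome CT and polysome U, where the titles' CT goes with the genotype WT and U with FBL knockdown. They are called labelled control and labelled knockdown here. From the gradient, 14 fractions were collected, and the sources used here do not give the ones that were sequenced. Nor do they tell if the libraries of each group stem from separate infections or cultures. P-values thus cover only the spread seen between these libraries, which may be technical.

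The counts of the targeted gene did not follow the labels. FBL stood at 250 and 88.1 CPM (counts scaled to a fixed library total after normalization) in input CT1 and CT2 and at 253 and 84.2 CPM in input U1 and U2. In polysome RNA it stood at 498 and 163 CPM in CT1 and CT2 and at 499 and 165 CPM in U1 and U2. In each group the library numbered 2 was lower, by 64.8% to 67.2%, while the log2 difference by label was 0.01 in polysome RNA (SE 0.69). The labels give the title number no meaning, and every library stayed in the group of its label. Below, each direction is given for libraries labelled knockdown or control, and the comparison of numbers stands beside that of labels.

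Gene counts ranged from 22.2 M (mega-counts) in polysome U2 to 43.1 M in input U2. Mitochondrial ribosomal RNA took 1.25% to 1.52% of counts in input and 0.0426% to 0.102% in polysome RNA, and polysome libraries had reads from 14344 to 15910 genes against 18323 to 18440 in input. The sum of 9 myeloid markers was 1333 to 1638 CPM in the 8 libraries, although MPO, a granule enzyme among them, reached no more than 3.31 CPM. Markers of erythroid and megakaryocytic cells summed to 1.61 to 3.14 CPM in polysome CT and 3.66 to 6.59 CPM in polysome U. Lymphoid markers summed to 2.77 to 3.69 and 5.66 to 7.71 CPM. In input the erythroid and megakaryocytic sums were 1.67 to 4.03 CPM in CT and 1.41 to 3.08 CPM in U. The lymphoid sums there were 4.03 to 4.04 and 3.57 to 3.76 CPM. GATA1, GP9, PF4, CD3E, CD3D, MS4A1 and CD2 had no read in any library. The part of these small sums in the results below was not tested.

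Large-subunit assembly starts in the nucleolus on the precursor that holds the 5.8S and 28S ribosomal RNAs, joined by internal transcribed spacers. NOC proteins, the PES1-BOP1-WDR12 (PeBoW) complex, DEAD-box helicases and a set of RNA-binding factors fold and pack the early particle, and RPF2 with RRS1 brings in the 5S ribonucleoprotein. LAS1L and NOL9 cut and phosphorylate the second spacer within a complex scaffolded by PELP1 and TEX10 and served by the protease SENP3. The giant ATPase MDN1 then strips early factors away, GTPases gate the passage through the nucleoplasm, and NMD3 is the export adaptor. Growing cells, leukaemic ones among them, spend much of their transcription on this route, and many of its genes are known MYC targets.

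The 52 transcripts spanned a wide range of abundance. In input RNA the mean of the 4 libraries ran from 3.94 CPM for GNL3L to 491 CPM for BOP1, with a median of 61.4 CPM, and in polysome RNA from 1.91 to 1166 CPM with a median of 57.9 CPM. Per kilobase of annotated exon, input CT levels ran from 1.58 CPM for MDN1 to 147 CPM for BOP1 with a median of 14.4 CPM. The length used joins the exons of all annotated transcripts of a gene, so it can exceed that of the mRNA present. Ranks on this scale are thus uncertain. After BOP1 came RRS1 (101 CPM per kb), NOP53 (78.7), PES1 (75.5) and MRTO4 (70.7). At the low end MDN1 was followed by GNL3L (1.69) and RRP15 (1.92). Members of a single complex were not at like levels: WDR12, the third protein of PeBoW, had 2.67 CPM per kb in input CT beside the 147 and 75.5 of its partners BOP1 and PES1. Annotated exons span 9098 bases in WDR12 (coding length 1269), 7883 in RRP15 (846) and 3716 in BOP1 (2238). The part of these lengths in the gaps was not tested.

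**Figure D1:**
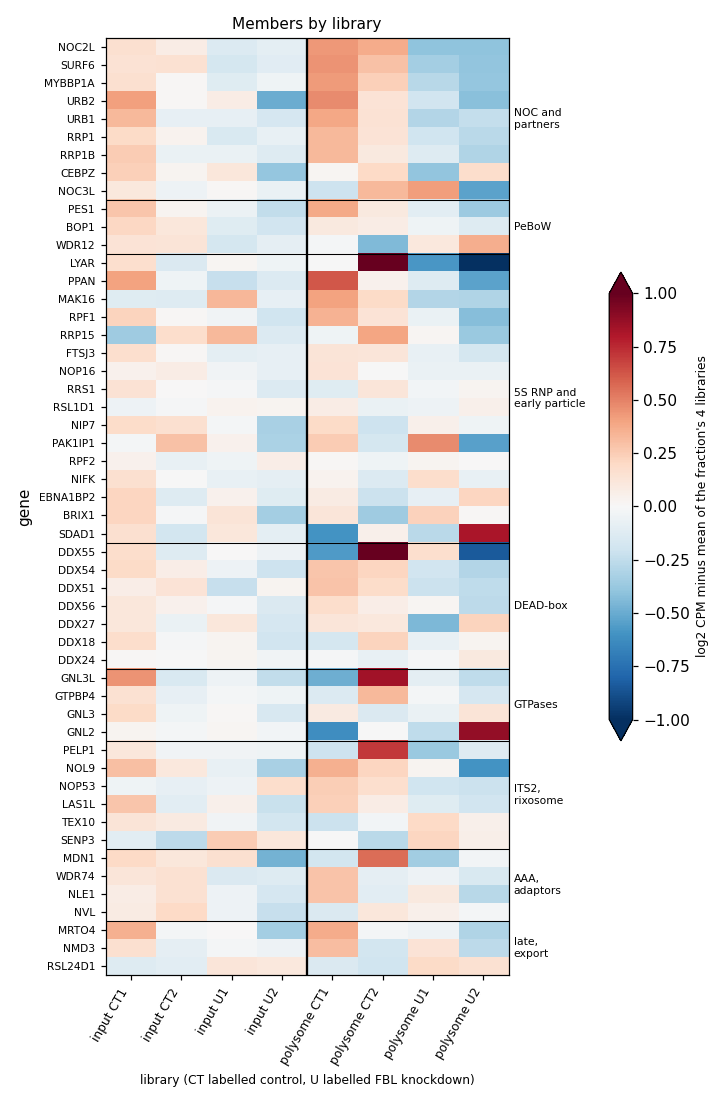
Level of each member (rows, by role) in each library (columns), as log2 CPM minus the mean of the 4 libraries of the same fraction, from blue (lower) to red (higher). NOC2L, SURF6 and MYBBP1A are red in both polysome CT libraries and blue in both polysome U libraries, while LYAR, DDX55 and PELP1 are reddest in polysome CT2.

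Comparing the labels within a fraction asks which transcripts differ in abundance (input) or on ribosomes (polysome) with the FBL knockdown label. In polysome RNA, 3 of the 52 members were called lower in the labelled knockdown and none higher. They were NOC2L, SURF6 and MYBBP1A, all of the list of NOC proteins and nucleolar partners, called the NOC group here. Of its genes only NOC2L, NOC3L and CEBPZ are NOC proteins. Of all 16503 genes, 0.63% were called lower and 0.248% higher (adjusted p under 0.05, Benjamini-Hochberg over all genes, edgeR's quasi-likelihood test). The median log2 fold change of the members was -0.21 against -0.06 over all genes. Below 0 were 37 of the 52, beside 8964 of all 16503 genes. At an unadjusted p under 0.05 stood 17 members, 16 of them lower, beside 18.1% of all genes in either direction and 11.6% lower. In input RNA no gene was called, a background of 0%. At an unadjusted p under 0.05 stood 4 members, all lower, where 4.51% of all genes did in either direction and 1.8% were lower. The members' median there was -0.18 against 0.0019 over all genes, with 44 of 52 below 0 beside 8186 of 16503 genes. DESeq2 called 1 member in input RNA, BOP1, beside 0.461% of all genes, and limma-voom none.

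Counted by libraries, 24 members had both labelled-knockdown input libraries below both labelled-control ones and 4 had them above, where 20.3% and 21.1% of all genes did. In polysome RNA it was 22 below and 5 above, where 23.6% and 15.4% of all genes did. In both fractions, whose libraries share their lysates, 16 members were lower without overlap, against 8.19% of all genes: BOP1, PES1, DDX51, DDX54, DDX56, FTSJ3, MYBBP1A, NOC2L, NOL9, NOP16, PPAN, RPF1, RRP1, RRP1B, SURF6 and URB1. RSL24D1 and SENP3 were higher in both, as were 6.24% of all genes.

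**Figure D2:**
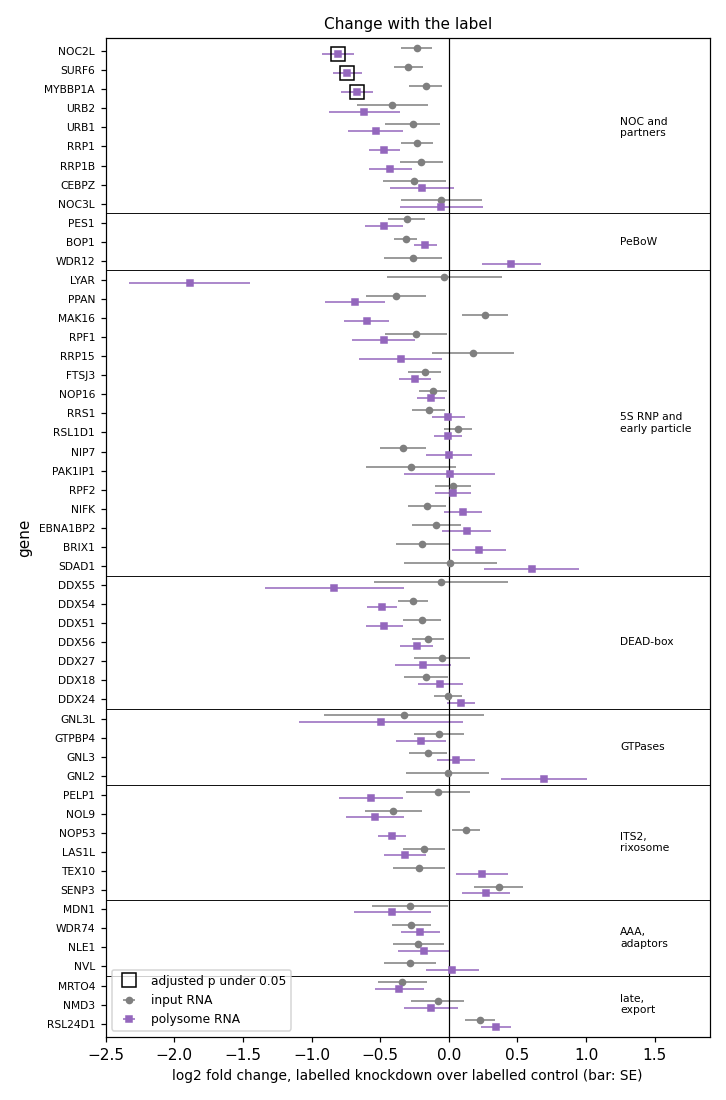
Log2 fold change of each member by label (labelled knockdown over labelled control) in input RNA (grey circles) and polysome RNA (purple squares), with bars of 1 SE, ordered by role. Black squares frame the 3 members called in polysome RNA, NOC2L (-0.81), SURF6 (-0.74) and MYBBP1A (-0.67). All 9 genes of the NOC group (NOC proteins and nucleolar partners) lie below 0 in both fractions.

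The NOC group holds scaffolds and partners of the earliest 60S precursors, and its 9 genes had a median log2 fold change by label of -0.53 in polysome RNA and -0.23 in input. NOC2L, which pairs with the NOC proteins CEBPZ and NOC3L on pre-60S particles, stood at 131 and 126 CPM in polysome CT and 73.5 and 73.7 CPM in polysome U. Its input levels were 70.5 and 66.3 CPM in CT and 57.5 and 58.9 CPM in U. Both pairs of libraries were tight and apart in each fraction, and the polysome log2 fold change was -0.81, SE 0.11, adjusted p = 0.0331, a 95% interval from -1.06 to -0.55. SURF6, a nucleolar RNA-binding protein, had 202 and 181 CPM in polysome CT and 117 and 113 CPM in polysome U, beside 106 and 106 and 84.5 and 88.2 CPM in input. Again no labelled-knockdown library reached a labelled-control one, and the polysome change was -0.74, SE 0.11, adjusted p = 0.035. MYBBP1A, a nucleolar protein that also binds transcription factors, had 161 and 141 CPM in polysome CT and 98.5 and 91.5 CPM in polysome U, and 102 and 92.0 and 83.9 and 88.6 CPM in input. Its groups were apart in polysome RNA by more than their own spread (-0.67, SE 0.12, adjusted p = 0.0405), and nearer in input.

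These 3 calls rest on a narrow margin. Without any 1 of the 4 input libraries, polysome CT2 or polysome U2, no member was called in polysome RNA. Without polysome CT1 the 3 lost their calls too, while PELP1 and LYAR were called. Of the 8 omissions, only that of polysome U1 left the 3 called. With GC content and length corrected, or with the polysome libraries fitted alone, no member was called, nor any other gene (a background of 0%). With that correction NOC2L was at -0.78, SURF6 at -0.78 and MYBBP1A at -0.57. Leaving out a library also raised the number of genes tested from 16503 to between 17597 and 17850. The part of a library alone in the lost calls was thus not tested. The direction held in each of these settings. Over all single-library omissions NOC2L lay between -0.83 and -0.74, SURF6 between -0.81 and -0.66 and MYBBP1A between -0.76 and -0.57. With the title number as a block, 11 members were called, all lower (MRTO4, PES1, NOP53, DDX54, PPAN, MYBBP1A, LYAR, SURF6, RRP1, NOC2L and MAK16), beside 6.38% of all genes.

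**Figure D3:**
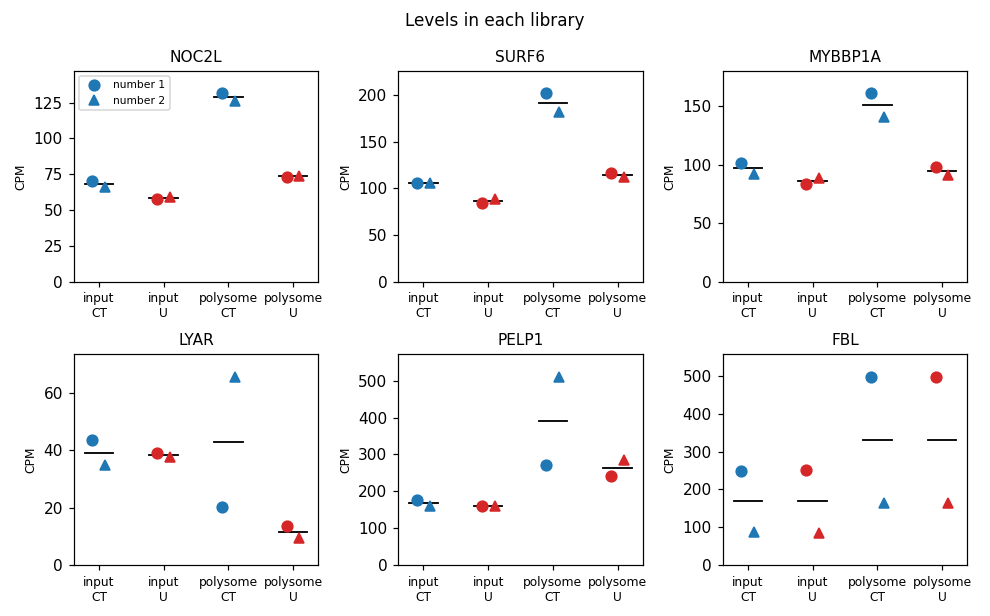
CPM of 5 members and FBL in each library, by fraction and label, with circles for title number 1, triangles for number 2 and a line at the mean of each pair; every axis starts at 0. In polysome RNA the pairs of NOC2L, SURF6 and MYBBP1A part by label, LYAR and PELP1 have a single high library (polysome CT2), and FBL parts by number.

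The other 6 genes of the group were not called. RRP1, a factor of 28S rRNA maturation, had 233 and 205 CPM in polysome CT and 162 and 154 CPM in polysome U, -0.47, SE 0.11, adjusted p = 0.0816, and 103 and 92.7 against 81.1 and 85.6 CPM in input. Its 2 groups did not overlap in either fraction. Its paralog RRP1B (-0.43), URB1 (-0.53) and URB2 (-0.62), large nucleolar scaffolds of early particles, had polysome values of like size with adjusted p from 0.199 to 0.249. CEBPZ, a NOC protein also known as a CCAAT-binding factor, was at -0.20 with 18.0 and 20.4 CPM in polysome CT and 13.5 and 20.2 CPM in polysome U, which overlapped. NOC3L was at -0.06, and its polysome U libraries differed from each other by more than 1.5 times (18.4 and 9.45 CPM).

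Promoter sequence is shown, as description only, for NOC2L and SURF6, the members with the lowest adjusted p by label. Both lie on the minus strand. The stretches run 5′ to 3′ towards the gene, come from RefSeq's promoter windows (GRCh38.p14), are limited to bases that lie in no annotated exon of GENCODE v29, and carry capitals only at CACGTG, the E-box bound by MYC and related factors. The NOC2L stretch is chr1:959310-959506, of 197 bases and 79.2% G or C. The SURF6 stretch is chr9:133336399-133336438, of 40 bases.
NOC2L: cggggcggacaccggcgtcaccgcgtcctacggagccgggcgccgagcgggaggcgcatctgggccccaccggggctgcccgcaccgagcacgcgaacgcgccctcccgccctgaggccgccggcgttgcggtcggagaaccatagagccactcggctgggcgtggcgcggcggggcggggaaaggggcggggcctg
SURF6: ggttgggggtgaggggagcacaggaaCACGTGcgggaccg
The NOC2L window held no CACGTG, and the one of SURF6 starts 224 bases upstream of the RefSeq start site. In MYBBP1A the word starts at base 28 downstream of its start site, and its upstream window is nearly all annotated exon. Of the 52 members, 44 had a RefSeq window of 300 bases (250 before and 50 after the start), and 16 of these (36.4%) held CACGTG, which reads the same on both strands. It stood in 12.7% of the windows of 10545 tested protein-coding genes and in 7.26% of all 35116 windows. Other members with the word were DDX54, EBNA1BP2, GNL2, GNL3, LYAR, MDN1, MRTO4, NLE1, NOC3L, PAK1IP1, PELP1, PES1, SDAD1 and TEX10. A match is a description of the letters, not a measured site of binding. Whether the word goes with the change by label was not tested.

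NOC2L lies at chromosome 1: 944204 to 959309, SURF6 at chromosome 9: 133328774 to 133336398 and MYBBP1A at chromosome 17: 4538897 to 4555631 (GRCh38, GENCODE v29). Exons of SURF6 overlap no other gene. Those of NOC2L share 378 bases with SAMD11 and those of MYBBP1A 139 bases with SPNS2, both on the opposite strand, and the sources used here give no strand setting for the counts. At least 15% of exon bases were shared with another gene in 10 members: EBNA1BP2, PPAN, FTSJ3, NIP7, NOP16, SENP3, GTPBP4, MAK16, WDR74 and CEBPZ. The share was 59.8% in PPAN, which has a read-through gene with P2RY11, and 41.2% in SENP3, which has one with EIF4A1. These counts are uncertain. A further limit comes from 11 members with a small RNA inside the gene, such as SNORD105 in PPAN, and from 15 with pseudogenes of the same name. The pseudogenes of 10 of these had no read, and those of SDAD1 held 8.62% of its own count.

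The 3 PeBoW genes, whose complex is needed to process the 28S precursor, did not share a direction in polysome RNA. BOP1, the most abundant member, had 562 and 527 CPM in input CT and 448 and 427 CPM in input U. The groups did not overlap, and the input change of -0.32 (SE 0.08) had the smallest p of all members there, with an adjusted p of 0.781. In polysome RNA BOP1 had 1247 and 1223 CPM in CT and 1131 and 1063 CPM in U, a smaller change of -0.17, SE 0.08, adjusted p = 0.311. PES1 had 373 and 315 and 296 and 260.5 CPM in input and 793 and 653 and 566 and 475 CPM in polysome RNA, in the same group order (-0.47, SE 0.14, adjusted p = 0.12 in polysome RNA). Both genes were lower without overlap in both fractions. WDR12 had 24.4 and 24.2 CPM in input CT, 19.6 and 20.9 in input U, 18.4 and 13.8 in polysome CT and 20.1 and 24.1 in polysome U. Its labelled-knockdown libraries were the lower ones in input (-0.26) and the higher ones in polysome RNA (0.46). That difference between the fractions was 0.72, SE 0.30, adjusted p = 0.772.

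Of the 16 factors of 5S loading and the early particle, none was called by label. Their median was -0.0025 in polysome RNA and -0.13 in input, so they lay nearer to all genes than the NOC group. LYAR, a nucleolar zinc-finger protein, had the largest polysome difference by label of all members (-1.89, SE 0.44, adjusted p = 0.0738). Its polysome CT libraries read 20.3 and 65.8 CPM and its polysome U libraries 13.6 and 9.50 CPM, while input stood at 43.5 and 35.0 CPM in CT and 39.2 and 37.6 CPM in U. The 2 polysome CT libraries were thus over 1.5 times apart, and without CT2 the change was -0.80. PPAN, a Brix-domain protein of early particles, had 161 and 108 CPM in polysome CT and 95.4 and 71.8 CPM in polysome U, and 80.0 and 58.8 and 51.4 and 55.0 CPM in input. It was lower without overlap in both fractions and not called (-0.68, SE 0.22, adjusted p = 0.153 in polysome RNA). MAK16, needed for stable early particles, was at -0.60 in polysome RNA (SE 0.17, adjusted p = 0.11) and 0.26 in input, opposite directions with no overlap in either fraction.

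RPF1, a Brix-domain protein of early particles, was lower without overlap in both fractions, with 23.8 and 20.5 CPM in input CT, 19.8 and 17.7 in input U, 16.1 and 14.0 in polysome CT and 12.1 and 9.45 in polysome U (-0.48, SE 0.23, adjusted p = 0.301 in polysome RNA). RPF2 and RRS1, which load the 5S particle, were at 0.03 and -0.0026 in polysome RNA with SE of 0.13 and 0.12. RRS1, among the highest members per kilobase, had 180.5 and 164 CPM in input CT and 162 and 149 CPM in input U, and 101 and 119.8 and 108 and 112 CPM in the polysome groups. The polysome groups of RRS1 overlapped. BRIX1, another Brix-domain protein, had 155 and 132 and 146 and 105 CPM in input CT and U and 77.8 and 56.1 and 83.8 and 72.1 CPM in polysome CT and U, which overlapped in both fractions. PAK1IP1, a WD-repeat protein of early particles, had 21.0 and 26.1 and 21.9 and 17.1 CPM in input and 14.1 and 10.5 and 16.4 and 8.15 CPM in polysome RNA, in the same order. The library numbered 2 was the lower one of each polysome pair. SDAD1, the counterpart of yeast Sda1, went the other way from LYAR by label, with 7.87 and 12.3 CPM in polysome CT and 9.89 and 20.9 CPM in polysome U (0.60, SE 0.35, adjusted p = 0.378), and input at 30.9 and 24.4 and 29.9 and 25.9 CPM. The high polysome library was U2, and without it the change was -0.03. RRP15, the third lowest member per kilobase, ranged from 12.4 to 19.8 CPM over the input libraries and from 8.39 to 14.3 CPM over the polysome libraries, where the difference by label was -0.35 (SE 0.30). RSL1D1, FTSJ3, NIP7, NOP16, NIFK and EBNA1BP2 lay between -0.25 (FTSJ3) and 0.13 (EBNA1BP2) in polysome RNA.

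The 7 DEAD-box helicases, enzymes that remodel RNA in the particle, were all below 0 in input (median -0.15) and 6 were below 0 in polysome RNA (median -0.24), none of them called. DDX54 came closest in polysome RNA (-0.49, SE 0.11, adjusted p = 0.0675), with 264 and 253 CPM in CT and 191 and 178 CPM in U. DDX51 followed with 87.8 and 81.5 and 61.9 and 60.3 CPM (-0.47). Both pairs of groups were apart. DDX56 was lower without overlap in both fractions, at 146 and 138 and 134 and 122 CPM in input CT and U and 310.1 and 289 and 279 and 229 CPM in polysome CT and U (-0.24 in polysome RNA, adjusted p = 0.319). DDX55 had 5.24 and 18.3 CPM in polysome CT and 8.75 and 4.34 CPM in polysome U, beside 23.8 and 19.3 and 21.1 and 20.3 CPM in input. Its polysome groups overlapped, and its value of -0.83, SE 0.51, adjusted p = 0.397 turned to 0.34 without polysome CT2. DDX24 (0.09), DDX18 (-0.06) and DDX27 (-0.19) were nearer 0.

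Among the 4 nucleolar GTPases no member was called by label. GNL2, a GTPase of nucleolar and nucleoplasmic particles, had the highest polysome value of all members (0.69, SE 0.31, adjusted p = 0.281). It stood at 14.3 and 21.96 CPM in polysome CT and 18.5 and 40.5 CPM in polysome U, which overlapped, while its 4 input libraries were within 91.6 to 94.9 CPM. Without polysome U2, its high library, the change was 0.03. GNL3L, the lowest member in CPM, had 5.29 and 3.48 and 3.74 and 3.25 CPM in input CT and U and 1.27 and 3.20 and 1.67 and 1.495 CPM in polysome CT and U. GNL3, known as nucleostemin, and GTPBP4 were at 0.05 and -0.20 in polysome RNA.

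The genes of ITS2 processing and the rixosome, the complex around PELP1, TEX10 and LAS1L, had a median by label of -0.37 in polysome RNA and -0.13 in input over 6 members, and none was called. NOP53, a factor that hands the particle to the exosome, had 517 and 490.0 CPM in polysome CT and 379 and 377 CPM in polysome U (-0.41, SE 0.10, adjusted p = 0.0804). In input it had 426 and 414 CPM in CT and 423 and 494 CPM in U. The polysome groups were apart and the input groups overlapped, with the difference between the fractions at -0.54, SE 0.14, adjusted p = 0.756. PELP1 had 271 and 511 CPM in polysome CT and 243 and 286 CPM in polysome U (-0.57, SE 0.23, adjusted p = 0.239), and input between 159 and 177 CPM. Its polysome groups overlapped, and CT2 was the high library. SENP3 was higher without overlap in both fractions, at 21.9 and 19.7 CPM in input CT, 28.1 and 25.4 in input U, 35.0 and 29.2 in polysome CT and 40.8 and 36.7 in polysome U, with 0.27, SE 0.18, adjusted p = 0.434 in polysome RNA. NOL9 (-0.54), LAS1L (-0.32) and TEX10 (0.24) were not called either.

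The last steps gave no call by label. Of the AAA ATPases and their adaptors, MDN1 had 30.2 and 28.6 and 29.4 and 19.0 CPM in input CT and U and 28.0 and 47.0 and 25.1 and 31.4 CPM in polysome CT and U. All its group pairs overlapped. Polysome changes of this group ran from -0.41 for MDN1 through -0.21 for WDR74 and -0.18 for NLE1, adaptors of AAA ATPases, to 0.02 for NVL, itself an AAA ATPase. RSL24D1, the placeholder for a ribosomal protein in late particles, was the late factor with non-overlapping groups in both fractions, at 86.8 and 88.3 CPM in input CT, 103 and 102 in input U, 68.1 and 65.6 in polysome CT and 86.1 and 83.5 in polysome U. It was higher in the labelled knockdown, by 0.34, SE 0.11, adjusted p = 0.154 in polysome RNA. MRTO4, which holds the place of the stalk protein P0, had 226 and 173 and 176 and 139 CPM in input CT and U and 275 and 211 and 206 and 173 CPM in polysome CT and U, apart in polysome RNA (-0.36, SE 0.18, adjusted p = 0.316). NMD3 was at -0.13.

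Subtracting the input change from the polysome change, which asks whether the share of a transcript on polysomes differs by label, called no gene of 16503, a background of 0%, and no member. In data simulated for this comparison, with the same fixed spread for all genes, 92% of 2-fold and 18% of 1.5-fold changes were recovered. The changes were placed in genes with a mean CPM of 10 or more, and the rates may be too high for the data. At an unadjusted p under 0.05 stood 7 members and 6.34% of all genes. The 6 lower ones were LYAR (-1.86), MAK16 (-0.86), NOC2L (-0.58), NOP53 (-0.54), MYBBP1A (-0.50) and SURF6 (-0.44), and the higher one was WDR12. Their adjusted p ranged from 0.756 to 0.772. For NOC2L the 95% interval of the difference ran from -0.93 to -0.22 on the log2 scale. It is not adjusted for the 16503 genes tested, and NOC2L was picked here by its unadjusted p.

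Compared by title number, as FBL parted, the members showed no call. Libraries numbered 2 against 1 gave 0 of 52 members in polysome RNA, where 0.0182% of all genes were called, and 0 in input, where 0.0121% were. Unadjusted p was under 0.05 for 5 members in polysome RNA and for none in input, against 9.05% and 1.94% of all genes. In input the members' median was -0.13 against -0.0055 over all genes, with 43 of 52 below 0 beside 8378 of 16503 genes. There 20 members were lower without overlap and none higher, where 18.2% and 17.3% of all genes did so. In polysome RNA the median was -0.06 against -0.0076 over all genes. Of the members, 8 were lower without overlap and 7 higher, beside 15.7% and 14% of all genes. By number FBL itself was lower in polysome RNA, at -1.60 on the log2 scale (SE 0.13, adjusted p = 0.00264). Comparisons by number and by label use the same libraries.

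The members with the largest changes by number in polysome RNA were led by PAK1IP1 among the lower (-0.71, SE 0.27, adjusted p = 0.503). After it came PPAN (-0.51), NMD3 (-0.44), NLE1 (-0.38) and BRIX1 (-0.34). NMD3 had 54.9 and 39.1 CPM in polysome CT1 and CT2 and 48.7 and 37.0 CPM in U1 and U2, and 80.8 and 67.9 and 71.1 and 69.7 CPM in input CT and U. NLE1 had 69.5 and 53.1 CPM in polysome CT1 and CT2 and 60.8 and 47.0 CPM in U1 and U2, and 31.3 and 33.0 and 28.7 and 26.4 CPM in input. In both genes each library numbered 2 was below each numbered 1 in polysome RNA. Among the higher ones GNL2 (0.92, SE 0.26, adjusted p = 0.405) and SDAD1 (0.90, SE 0.27, adjusted p = 0.409) had the smallest p, ahead of LYAR (1.16), DDX55 (0.71) and GNL3L (0.68). LYAR and DDX55 were at -0.83 and -0.69 without polysome CT2, the reverse direction. For GNL2 the values of number 2 were above those of number 1 in both polysome pairs.

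The 2 libraries of a polysome group were farther apart than those of an input group. A gap of more than 1.5 times was seen in 1 member in input CT (GNL3L) and 1 in input U (MDN1). It was seen in 7 members in polysome CT (GNL2, GNL3L, PELP1, MDN1, DDX55, SDAD1 and LYAR) and in 7 in polysome U (NOC3L, GNL2, NOL9, DDX27, DDX55, SDAD1 and PAK1IP1). Over all genes averaging 10 CPM or more, the shares were 2.54%, 3.36%, 9.49% and 15.6% in the same order. GNL2, DDX55 and SDAD1 were in both polysome lists, and each was also called lower in polysome than in input RNA.

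The comparison of polysome with input RNA, over both labels, asks which of these mRNAs are held on polysomes more or less than the average mRNA. Here the members split: 17 were higher on polysomes and 16 lower, where 20% and 22.8% of all genes were called higher and lower. The members' median log2 ratio was -0.04 against -0.22 over all genes. The ratio is relative within each library, so an amount on polysomes cannot be read from it.

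By role, BOP1 (1.25, SE 0.06, adjusted p = 1.03e-06) and PES1 (0.99, SE 0.10, adjusted p = 2.67e-05) of PeBoW were higher on polysomes, and WDR12 was not called (-0.24). Of the ITS2 and rixosome genes 4 of 6 were higher and none lower, PELP1 (0.97), LAS1L (0.77), SENP3 (0.58) and TEX10 (0.48). The NOC group had 4 higher, RRP1 (1.04, SE 0.08, adjusted p = 6.75e-06), SURF6 (0.63), NOC2L (0.62) and MYBBP1A (0.39). Its 2 lower ones were the NOC proteins CEBPZ (-1.59, SE 0.17, adjusted p = 4.07e-05) and NOC3L (-1.04). DEAD-box genes were higher in DDX56 (1.03, SE 0.08, adjusted p = 8.56e-06), DDX54 (0.80) and DDX51 (0.46) and lower in DDX55 (-1.26) and DDX18 (-0.66). With GC content and length corrected, none of the 4 higher genes of the NOC group kept that call. MYBBP1A (-0.52, adjusted p = 0.0012) and DDX51 (-0.37, adjusted p = 0.0136) were called lower. BOP1, LAS1L, TEX10 and DDX56 stayed higher, CEBPZ, DDX55 and DDX18 stayed lower, and PES1, PELP1, SENP3, DDX54 and NOC3L were no longer called. In the AAA group NLE1 (0.95) and WDR74 (0.88) were higher and NVL (-0.70) lower without the correction. With it WDR74 and NVL kept their calls and NLE1 did not.

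Without a correction for GC content and length, the early factors and the GTPases lay to the lower side. Of the 16 early factors 2 were higher, PPAN (0.80) and NOP16 (0.74), and 7 lower, SDAD1 (-1.16, SE 0.25, adjusted p = 0.00355), RSL1D1 (-0.89), BRIX1 (-0.89), PAK1IP1 (-0.80), RPF1 (-0.67), NIFK (-0.63) and RRS1 (-0.57), with a group median of -0.56. GNL2 had the lowest ratio of all members (-2.02, SE 0.23, adjusted p = 6.01e-05), with 91.6 to 94.9 CPM in input and 14.3 to 40.5 CPM on polysomes, far from overlap. GNL3 was also lower (-0.43), and GNL3L (-1.05, adjusted p = 0.0674) and GTPBP4 (-0.28) were not called. Of the late factors NMD3 (-0.69) and RSL24D1 (-0.33) were lower and MRTO4 was not called (0.28). With GC content and length corrected, RSL1D1, RRS1 and GNL2 stayed lower, NOP16 stayed higher and FTSJ3 was newly called lower. BRIX1, SDAD1, NMD3 and PPAN lost their calls, as did PAK1IP1 (0.14), RPF1 (0.25), NIFK (0.17) and GNL3 (0.083), which changed sign. RSL24D1 was then called higher (0.62). Levels of the 2 fractions did not overlap in 16 members that were higher and 18 that were lower, beside 17.7% and 22.7% of all genes.

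**Figure D4:**
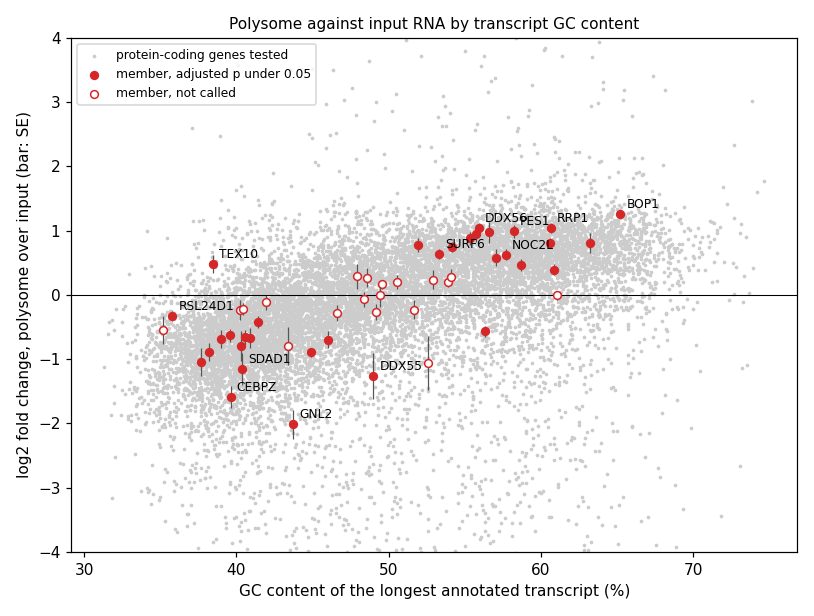
Log2 fold change of polysome over input RNA (y axis, bars of 1 SE) against the GC content of the longest annotated transcript (x axis, percent) for the members (red, filled where the adjusted p was under 0.05) and the protein-coding genes tested (grey); 315 grey genes lie outside the y axis. Members run from lower left (CEBPZ, GNL2) to upper right (RRP1, BOP1) within the grey cloud.

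The split went along with base composition. Over the 52 members the ratio and the GC content of the longest transcript correlated with Pearson's r of 0.71 and Spearman's rho of 0.73, and over 13085 protein-coding genes with 0.39 and 0.56. These are correlations across genes of the same libraries, which are not independent replicates. The 26 members with more GC (49.4% to 65.2%) had a median log2 ratio of 0.60, with 16 higher and 1 lower. Those with less GC (35.2% to 49.2%), also 26, had a median of -0.64, with 1 higher (TEX10) and 15 lower. Protein-coding genes parted at the same GC content had medians of 0.41 and -0.57, with 42.7% higher and 6.73% lower above it and 6.46% higher and 41.3% lower below it. After a correction for GC content and length, 7 members were called higher and 12 lower, 19 in place of 33, beside 10.4% and 18.9% of all genes. Of the 17 members called higher before, 6 kept that call (BOP1, DDX56, LAS1L, NOP16, TEX10 and WDR74) and 9 lost it, among them RRP1, PES1, PELP1, NOC2L and SURF6. The other 2, MYBBP1A and DDX51, were called lower. Of the 16 called lower before, 7 kept that call (GNL2, CEBPZ, DDX55, DDX18, NVL, RSL1D1 and RRS1) and 8 lost it, SDAD1 among them. RSL24D1 turned from -0.33 to 0.62 and was called higher. NOP53, FTSJ3 and DDX27 were newly called lower.

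The contrast can be read in the coding sequences of some members. Shown are 120 bases from the middle of the longest coding sequence (GENCODE v29, GRCh38) of 2 of the members highest on polysomes and the 2 lowest, 5′ to 3′ from the first base of a codon, with every G and C in capitals. RRP1 (coding bases 691 to 810) and DDX56 (820 to 939) were higher on polysomes, and GNL2 (1096 to 1215) and CEBPZ (1582 to 1701) lower.
RRP1: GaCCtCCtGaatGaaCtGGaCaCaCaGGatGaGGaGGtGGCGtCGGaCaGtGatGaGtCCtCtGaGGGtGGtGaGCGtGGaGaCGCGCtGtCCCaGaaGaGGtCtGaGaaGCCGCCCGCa
DDX56: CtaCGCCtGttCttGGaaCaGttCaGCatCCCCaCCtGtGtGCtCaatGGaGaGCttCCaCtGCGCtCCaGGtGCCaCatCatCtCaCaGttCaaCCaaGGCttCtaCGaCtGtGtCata
GNL2: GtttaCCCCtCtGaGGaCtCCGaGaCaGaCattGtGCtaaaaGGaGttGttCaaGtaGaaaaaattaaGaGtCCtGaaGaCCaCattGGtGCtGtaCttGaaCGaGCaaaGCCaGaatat
CEBPZ: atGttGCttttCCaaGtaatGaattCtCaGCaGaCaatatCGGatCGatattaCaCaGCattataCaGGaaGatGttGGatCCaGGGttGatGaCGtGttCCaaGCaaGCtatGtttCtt
G and C made up 60.8% of the RRP1 stretch, 52.5% of that of DDX56, 42.5% in GNL2 and 39.2% in CEBPZ. Over the whole coding sequences the 52 members ranged from 34.8% to 82.7% G or C at the third codon position, and the polysome ratio had a Spearman's rho of 0.73 with coding GC and 0.70 with third-position GC. Exceptions were RRS1, with 64.6% coding GC and a lower ratio (-0.57), and TEX10, with 42.4% and a higher one (0.48), among others.

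Of 32 further genes of the 60S route, 29 were measured. By label none was called in either fraction, with medians of -0.10 in input and -0.05 in polysome RNA. On polysomes 9 were called higher than in input and 9 lower, where 20% and 22.8% of all genes were. The ratios of these genes are given without the GC and length correction. Higher were, among others, GRWD1, a histone and RPL3 chaperone (1.26, SE 0.08, adjusted p = 2.67e-06), EIF6, the factor that keeps the subunits apart (1.25), and WDR18 of the rixosome (1.19). Lower were C1D, an exosome cofactor (-1.88, SE 0.34, adjusted p = 0.00124), NOL8 (-1.09) and SBDS, which helps to release EIF6 (-1.06).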

How the data were processed

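RNA-seq libraries of input and polysome RNA, 8 in all, were analysed. Per the submitters' processing notes, the authors used Trimmomatic 0.38, Bowtie2 and HTSeq 0.11.2 on GRCh38. The deposited values are raw read counts per gene. The sources used here give no strand setting or annotation release. Lines that name no gene (13.2% to 15.0% of reads) were left out. Counts were normalized by TMM and filtered with filterByExpr in edgeR 4.0.16 (R 4.3.3), and tested with its quasi-likelihood F test in a model of 4 groups (4 residual degrees of freedom), Benjamini-Hochberg over 16503 genes, with a call at an adjusted p under 0.05. Sharing the fit assumes that a gene varies alike in both fractions. The comparison by title number used a second model whose groups were fraction and number. In simulated data for the comparison by label in polysome RNA (16503 genes), 98% of 2-fold and 53% of 1.5-fold changes were recovered. The simulation gave all genes the same fixed spread between libraries in both fractions. Changes were placed only in genes with a mean CPM of 10 or more. The polysome libraries differed more than the input ones, so these rates may be too high for the data. GENCODE v29 gave positions, exon length and GC content.

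Libraries of a group differed beyond sampling noise (chi-square per degree of freedom 22.1 to 48.7). Input and polysome libraries of the same title name come from the same lysate per the labels' protocols, where deviations of the pairs correlated at 0.07 in CT and in U over all genes and at 0.31 and 0.36 over the 8159 genes with a mean CPM of 10 or more. The members and gene lists were chosen with earlier results of these data known. All members may be named. Values in every library are given for FBL, members called by label, the 5 largest rises and falls by label and number in polysome RNA and between the fractions, and the 5 highest and 3 lowest members per kilobase. Alternatives were other normalizations (RLE, upper quartile), filters, DESeq2 1.42.0, limma-voom (limma 3.58.1), a correction for GC content and length, blocks, and each library left out.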

Additional observations from a re-analysis of the deposited data

How the results depend on the processing

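Members called by label in polysome RNA went from 3 to 9 with no filter on low counts, 10 with DESeq2 and 5 with limma-voom. Of all genes, 0.879% were called in the main fit, 4.95% with no filter, 7.29% with DESeq2 and 1.8% with limma-voom. With the GC and length correction, or with the polysome libraries fitted alone, no member and no gene was called. The members' median log2 fold change lay between -0.35 and -0.14 with each library left out. With the replicate block of the title number 11 members were called, beside 6.38% of all genes. Between the labels a number is all that the libraries share, and deviations of same-numbered CT and U libraries correlated at 0.09 in input and 0.02 in polysome RNA over all genes, and at 0.47 and 0.18 over the 8159 genes with a mean CPM of 10 or more. Without polysome U1 the members' median by label in polysome RNA was -0.35 against -0.13 over all genes, and without polysome CT1 -0.24 against -0.0035. By label in input RNA DESeq2 called 1 member, beside 0.461% of all genes. The difference between the fractions by label had 1 call with no filter and 0 with the lysate as a replicate block, beside 0.244% and 0.0545% of all genes. With each library left out its median over the members lay between -0.17 and 0.091. By number in polysome RNA 3 members were called with no filter and 0 to 2 with each library left out. The difference by number had 1 call with no filter and 0 to 1 with a library left out. Between polysome and input RNA 33 members were called, 19 with the GC and length correction and 37 with the lysate as a replicate block. In the same order, 42.9%, 29.3% and 45.1% of all genes were called. With a library left out the members' median ratio lay between -0.17 and 0.0094. By number in input RNA every setting run gave 0 members.

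Single genes were followed across the settings in 58 cases: 12 by label and 11 by number in polysome RNA (the 5 highest and 5 lowest members, those called, and FBL), and 35 between the fractions (the called members, GNL3L and FBL). Under another setting, 863 of their values kept direction and side of the threshold, 23 passed it anew, 46 no longer passed and 17 changed sign. Of these 17, 10 lay between polysome and input RNA with the GC and length correction: NOC2L (-0.11), MYBBP1A (-0.52), SENP3 (-0.017), DDX51 (-0.37) and DDX54 (-0.037) went below 0, and RSL24D1 (0.62), RPF1 (0.25), GNL3 (0.083), NIFK (0.17) and PAK1IP1 (0.14) above. By label in polysome RNA, SDAD1 ranged from -0.028 to 1.05 with each library left out, DDX55 from -1.47 to 0.34 and FBL from -0.997 to 1.02, and FBL was at -0.10 with the GC and length correction. By number LYAR ranged from -0.83 to 1.96 and DDX55 from -0.69 to 1.39. The cause of these changes was not tested. Upper quartile scaling moved the median of all genes by 0.06 (log2) in polysome RNA and took MYBBP1A to an adjusted p of 0.0603. In simulated data 1.5-fold changes were recovered in 62% by label in input RNA, 53% in polysome RNA and 18% for the difference between the fractions. By number the rates were 71%, 56% and 21%, and between polysome and input RNA 98%. With the same fixed spread simulated for all genes, the rates may be too high for the data. Members without a call may thus still differ.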
